A study of Sus scrofa with 15 samples.

Results

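The interferon regulatory factors and the Ikaros factors are families of transcription factors that set the identity and the responses of lymphocytes, and 9 of their genes were followed here across porcine NK cells. They were chosen by name, as *IRF1*, *IRF2*, *IRF3*, *IRF4*, *IRF5*, *IRF8*, *IKZF1*, *IKZF2* and *IKZF3*, from the 29886 genes counted. All 9 passed the filter on low counts that left 10939 genes for testing. In the liver CD8α dim cells, *IRF8* was at 4.01 times its level in blood NK cells over the 5 pigs, *IKZF2* was higher by a smaller margin and *IRF5* was lower. The remaining genes did not pass the main test between any pair of populations. Against blood, *IRF8* passed under all 28 alternative settings, *IRF5* under 24 and *IKZF2* under 18. B cell marker RNA was also higher in the lrNK libraries, and its part in these levels was not tested.

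The interferon regulatory factors share a DNA-binding domain that recognises the promoters of interferon-induced genes. *IRF1* is induced by interferon gamma and activates such genes, while *IRF2* competes for the same sites and mostly represses them. *IRF3* and *IRF5* are held inactive in the cytoplasm until they are phosphorylated downstream of sensors of nucleic acids or of Toll-like receptors. *IRF4* and *IRF8* are confined largely to blood cells, bind DNA weakly on their own and act with partners of the ETS and AP-1 families. The Ikaros factors are zinc finger proteins, encoded by *IKZF1* (Ikaros), *IKZF2* (Helios) and *IKZF3* (Aiolos), which pair with each other and recruit chromatin remodelling complexes. *IRF8* is needed for the maturation of NK cells and their response to viruses in mice and humans, *IRF2* is needed for NK maturation in mice, and *IKZF2* and *IKZF3* mark different stages of innate lymphocyte development.

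RNA was read from 3 NK populations of the same 5 pigs, 6 months old: blood CD8α high cells (conventional NK), liver CD8α high cells and liver CD8α dim cells, which the study calls liver-resident (lrNK), in 15 libraries. No treatment or genetic change of the animals is named in the labels or methods. Liver leukocytes were obtained by flushing the organ, and cells bearing CD3 or CD172a were depleted before the NK cells were sorted as CD3- CD172a- CD8α+. Sequencing started at the 3′ end of polyadenylated transcripts, and a count therefore does not grow with transcript length. Levels are given as CPM, counts scaled to a common library size that carries the TMM factor of edgeR. The blood libraries held 2874092 to 3823973 counts, the liver CD8α high libraries 2886686 to 5680221 and the lrNK libraries 2003499 to 3776823. The lrNK libraries of pigs 1, 2 and 3 held the fewest counts, and a gene at a given level has the widest counting error there.

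On average, the labels matched the genes that define these populations. *EOMES*, which marks the lrNK cells, had 39.5 ± 21.2 CPM (SD, n = 5) in blood, 72.1 ± 83.2 in liver CD8α high cells and 677 ± 147 in lrNK cells, and *TBX21* had 1143 ± 105, 1188 ± 166 and 195 ± 65.9 CPM. *CXCR6* had 1.57 ± 2.01, 49.0 ± 60.0 and 592 ± 294 CPM, and *ITGA5* 10.3 ± 4.16, 11.3 ± 4.21 and 0.296 ± 0.434 CPM. The liver CD8α high library of pig 1 had *EOMES* at 218 and *CXCR6* at 153 CPM, beside medians of 38.6 and 23.2 in that population. In the lrNK library of pig 3, *CXCR6* was 86.2 CPM (lrNK median 700). Its 13 NK markers summed to 4511 CPM, the lowest of the 15 libraries. What set these libraries apart was not tested. B cell genes went against the sort: the summed level of the 11 B cell markers in the file was 65.2 to 190 CPM in blood, 39.9 to 88.7 in liver CD8α high cells and 383 to 1051 in lrNK cells, with 8 of the 10 tested markers higher in lrNK cells than in blood, beside 8.62% of all genes tested. Without pig 2, 4 were. *CD79A* was listed at 0 in all 15 libraries, and whether the counting covered its transcript end was not tested. Of the 5 tested plasma cell markers, 3 were higher in lrNK cells than in blood, beside the same 8.62%, and 2 to 4 were when a pig or library was left out, and 5 in DESeq2. The 7 T cell markers summed to 846 to 1420.2 CPM in blood, 905 to 1249.9 in liver CD8α high cells and 258 to 716 in lrNK cells, a sum set mostly by 1 gene. This was *CD3G*, at 865 ± 206 CPM in blood, 825 ± 151 in liver CD8α high cells and 289 ± 201 in lrNK cells, the only 1 of the 4 tested that was lower in lrNK cells than in blood (2 without the lrNK library of pig 5). *LCK*, which NK cells also express, gave 214 ± 15.9, 187 ± 12.7 and 167 ± 38.3 CPM, *CD3D* had 3.78 ± 2.16, 7.38 ± 2.39 and 8.43 ± 4.67 CPM, and *CD4* and *CD5* were listed at 0. The part of T cell RNA in the results below was not tested. Sums of monocyte, macrophage and Kupffer cell markers were at most 25.6 CPM and those of hepatocyte markers at most 8.14 CPM in any library. In the lrNK libraries 7 of the 12 and 4 of the 6 were listed at 0, and whether the counting covered their transcript ends was not tested, so that low sums are not read as absence of these cells. RNA from a larger number of such cells and more RNA per cell cannot be told apart in bulk libraries, and the same holds for every gene below.

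The 9 factors were read against the calls over all genes, where a call is an adjusted p under 0.05. Between lrNK and blood cells, 18.2% of the 10939 genes tested were called (8.62% higher and 9.6% lower in lrNK cells), and 3 of the 9 factors were, *IRF8* and *IKZF2* higher and *IRF5* lower. Between lrNK and liver CD8α high cells, 14.6% of all genes (6.96% higher and 7.68% lower in lrNK cells) and 1 of the 9 factors passed, and with the pig as a block 2 did. Between the CD8α high cells of liver and blood, 0.064% of all genes, 7 genes (0.0457% higher and 0.0183% lower in liver), and 0 of the 9 factors passed edgeR's test. By unadjusted p under 0.05 there were 549 genes and 1 of the 9 factors in that comparison, and DESeq2 called 25 genes and 0 of the 9. With 9 genes, a single call is a large part of the list, and nothing is read from these counts beside the share over all genes. The median log2 fold change of the 9 was 0.24, 0.17 and 0.21 between lrNK and blood, liver CD8α high and blood, and lrNK and liver CD8α high cells, beside 0.01, -0.02 and 0.02 over all genes tested. The comparisons share populations and are not independent of each other.

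**Figure D1:**
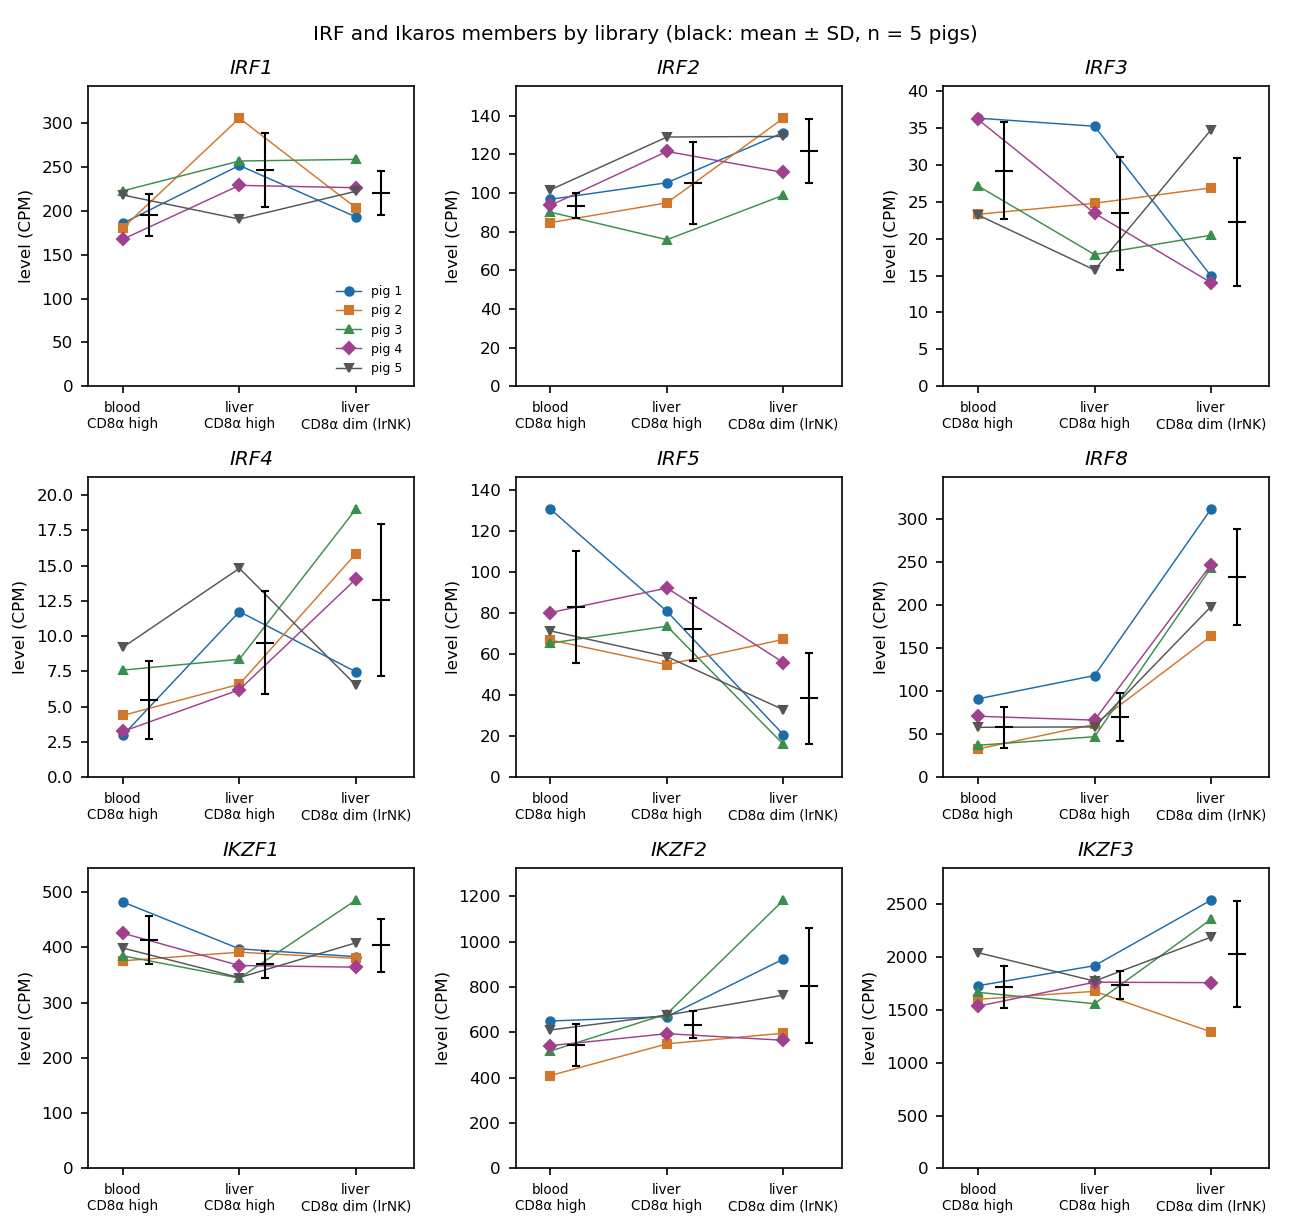
Level of each of the 9 genes in CPM (vertical axis of each panel, from 0) in blood, liver CD8α high and liver CD8α dim (lrNK) NK cells. Points are libraries, coloured lines join the libraries of one pig, and black bars are the mean and SD over 5 pigs. The 5 lrNK libraries lie between 164 and 311 CPM for *IRF8*, above every other library, while the populations overlap for the other 8 genes.

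*IRF8*, which codes for a factor that drives the mononuclear phagocyte and B cell lineages and supports NK maturation, gave the clearest difference of the 9 genes. Its locus lies on chromosome 6 of Sscrofa11.1, chr6:3041617-3060685, and no other annotated gene overlaps it. In blood it had 91.0, 32.9, 37.2, 70.8 and 58.0 CPM in pigs 1 to 5. In liver CD8α high cells the values were 118, 61.4, 47.1, 66.4 and 58.5 CPM, and in lrNK cells 311, 164, 243, 247 and 198 CPM. The lowest lrNK library was above the highest of the other 10 libraries, and pig 1 had the highest level in each of the 3 populations. Means were 58.0 ± 24.1 CPM (SD, n = 5) in blood, 70.3 ± 27.6 in liver CD8α high cells and 232 ± 55.7 in lrNK cells. The log2 fold change between lrNK and blood cells was 2.00, with a standard error of 0.28 and a fold of 4.01 (95% interval 2.67 to 6.03). Its adjusted p was 2.48e-05 in the quasi-likelihood test of edgeR, adjusted over all genes tested by the Benjamini-Hochberg method, as for each adjusted p below. Against liver CD8α high cells it was 1.73 (standard error 0.28, adjusted p = 1.51e-04), a fold of 3.31 with an interval of 2.21 to 4.96. Within animals, the lrNK level was 3.41 to 6.54 times the blood level and 2.63 to 5.16 times the liver CD8α high level of the same pig. The CD8α high cells of liver and blood gave a fold of 1.21 (interval 0.812 to 1.80, adjusted p = 1.00), so that a difference of up to 1.80 times between them lies within the error.

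B cell genes moved with *IRF8* between the populations, with little relation to it among the libraries of one population. Over the 15 libraries, the log2 levels of *IRF8* and of the summed B cell markers had a Pearson correlation of 0.772, and after each population's mean was taken away it was 0.0140, both as descriptions over libraries that share 5 animals. In the lrNK libraries of pigs 1 to 5, the B cell markers summed to 663, 1051, 403, 1040.5 and 383 CPM. The library with the most B cell RNA, that of pig 2, had the least *IRF8* of the 5, and the library with the most *IRF8*, that of pig 1, held the middle value of the B cell sum. Blood and liver CD8α high libraries had *IRF8* at 32.9 to 118 CPM with B cell sums of at most 190 CPM. The share of the lrNK *IRF8* counts that came from B cells was not tested.

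**Figure D2:**
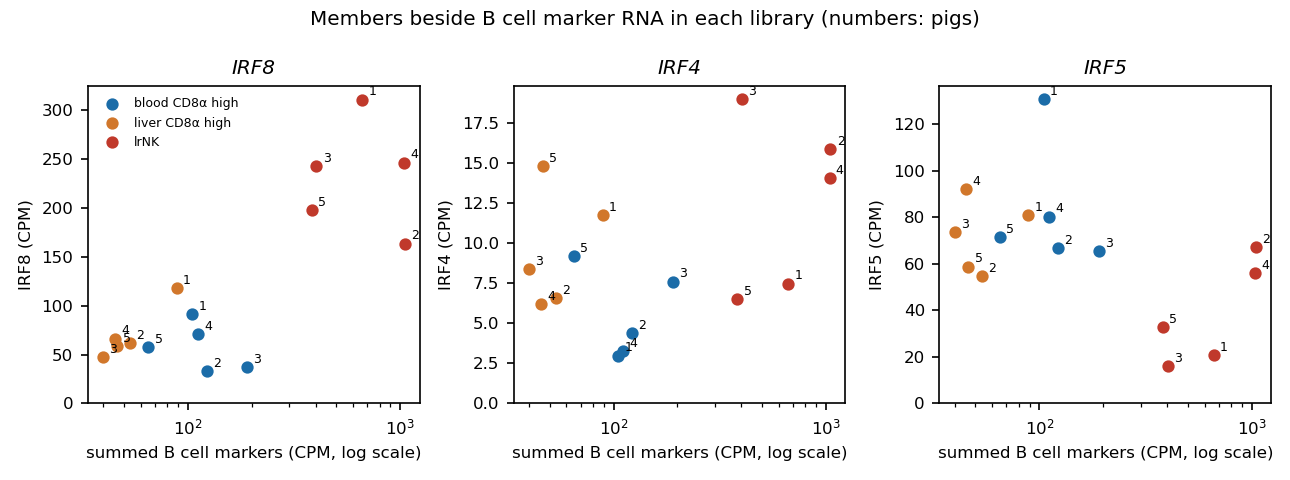
Level of *IRF8*, *IRF4* and *IRF5* (vertical axes, CPM, from 0) against the summed level of 11 B cell markers (horizontal axes, CPM, log scale) in the 15 libraries, with colours for the populations and numbers for the pigs. Within the 5 lrNK libraries the highest *IRF8* value, 311 CPM, belongs to pig 1 and the highest B cell sum, 1051 CPM, to pig 2, and *IRF5* is highest in pigs 2 and 4.

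Dendritic cells are the other blood cells known for high *IRF8*. The summed level of the 9 conventional dendritic cell markers in the file was 13.6 to 43.0 CPM in blood, 7.53 to 29.99 in liver CD8α high cells and 8.43 to 24.8 in lrNK cells. *CLEC9A*, *CLEC10A* and *CD207* were listed at 0 in all 15 libraries, with the same limit on what a 0 says. *XCR1*, a chemokine receptor of cross-presenting dendritic cells, was the only 1 of the 3 tested markers to rise, beside 8.62% of all genes (0 with a filter at 30 counts). It went from 0 or 1 count in the blood libraries to 9 to 40 counts in the lrNK libraries. The other 2 did not pass and had lower means in lrNK cells than in blood. *CADM1* had 2.78 ± 5.27 beside 15.1 ± 14.1 CPM, and *ZBTB46* 1.84 ± 0.699 beside 5.21 ± 3.70 CPM. When a pig or library was left out, at most 1 marker of the list fell. The sum of the 8 plasmacytoid dendritic cell markers was 20.6 to 45.6 CPM in blood, 10.6 to 34.8 in liver CD8α high cells and 76.5 to 197 CPM in lrNK cells. Of the 4 tested, 3 rose, beside 8.62% of all genes, and 2 to 4 did when a pig or library was left out and 2 in DESeq2, which did not call *SPIB* (adjusted p = 0.0533). The 3 were *TCF4*, *BLNK* and *SPIB*, which B cells also express, while *TLR9* did not exceed 2 counts in any library and *SIGLEC1* was listed at 0.

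*IRF5* codes for the factor that carries Toll-like receptor signals to inflammatory cytokine genes, and it went the other way. The gene lies at chr18:19678377-19691154, and 2044 of its bases are shared with *KCP*, which had 0 to 8 counts per library. In blood it had 131, 66.9, 65.4, 80.2 and 71.3 CPM in pigs 1 to 5. Liver CD8α high cells had 80.8, 54.8, 73.6, 92.2 and 58.8 CPM, and lrNK cells 20.8, 67.2, 16.1, 55.9 and 32.9 CPM. The lrNK libraries of pigs 1, 3 and 5 were below every other library, while those of pigs 2 and 4 lay within the range of the CD8α high cells. The means were 82.9 ± 27.3, 72.0 ± 15.5 and 38.6 ± 22.2 CPM (SD, n = 5). *IRF5* fell by 1.10 on the log2 scale between blood and lrNK cells (standard error 0.32, adjusted p = 0.0185), a fold of 0.466 with an interval of 0.294 to 0.739. The level fell in 4 of 5 pigs, and in pig 2 the ratio was 1.00. The call rests in part on pig 1: without this pig the log2 fold change was -0.71 (adjusted p = 0.180), without only its blood library -0.86 (adjusted p = 0.0748), and without only its lrNK library -0.93 (adjusted p = 0.0556). Without pig 5 it was -1.08 (adjusted p = 0.0742).

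Against liver CD8α high cells, *IRF5* had a log2 fold change of -0.90 in lrNK cells (standard error 0.32), which did not pass at an adjusted p of 0.0646. With the pig as a block it was -0.96 and passed, at an adjusted p of 0.0460. It also passed without pig 2 (-1.27, adjusted p = 0.0212), without the lrNK library of pig 2 (-1.18, adjusted p = 0.0143) and without that of pig 4 (-1.07, adjusted p = 0.0387). The CD8α high cells of the 2 organs gave a fold of 0.869 (interval 0.555 to 1.36, adjusted p = 1.00). The 2 lrNK libraries with *IRF5* in the range of the CD8α high cells, pigs 2 and 4, were also those with the largest B cell sums, 1051 and 1040.5 CPM. Within populations the correlation of *IRF5* with the B cell sum was 0.438 over the 15 libraries, and over them without removing the population means it was -0.525. The part of B cell RNA in these 2 values was not tested.

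*IRF4*, the relative of *IRF8* that B cells, plasma cells and activated T cells use, had the fewest counts of the 9 genes. It lies at chr7:133358-149609. Levels in blood were 2.98, 4.39, 7.60, 3.25 and 9.21 CPM, in liver CD8α high cells 11.7, 6.59, 8.36, 6.20 and 14.8 CPM, and in lrNK cells 7.48, 15.8, 19.0, 14.04 and 6.53 CPM. They rested on 9 to 28 counts in blood, 25 to 62 in liver CD8α high cells and 18 to 50 in lrNK cells, and the 3 ranges overlapped. The fold between lrNK and blood cells was 2.28 with an interval of 1.14 to 4.56, higher in 4 of 5 pigs, and it did not pass (adjusted p = 0.0964). Between liver CD8α high and blood cells the fold was 1.73 (interval 0.871 to 3.45, adjusted p = 1.00), with the higher level in liver in 5 of 5 pigs. Neither difference passed, except in DESeq2's fit with the pig as a block, where the log2 fold change between lrNK and blood cells was 1.31 (adjusted p = 0.0435). The correlation of *IRF4* with the B cell sum was 0.351 over the 15 libraries and 0.166 within populations.

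*IRF1* and *IRF2*, the activator and its competitor, did not pass the test in any comparison. *IRF1* had 195 ± 24.2 CPM (SD, n = 5) in blood, 247 ± 42.0 in liver CD8α high cells and 221 ± 25.2 in lrNK cells. It was the only one of the 9 genes with an unadjusted p under 0.05 between the CD8α high cells of liver and blood, with a fold of 1.26 (interval 1.02 to 1.57, higher in 4 of 5 pigs), a difference that did not pass after adjustment over all genes (adjusted p = 0.947). In lrNK cells the fold was 1.13 over blood (interval 0.910 to 1.41, higher in 5 of 5 pigs) and 0.895 over liver CD8α high cells (interval 0.719 to 1.11). The whole of its locus, chr2:134776122-134783646, lies inside the annotated span of *SLC22A5*, a carnitine transporter gene with 74 to 456 counts per library, and the strand used for counting is not stated in the sources used here. *IRF2*, at chr15:45546779-45693241, had 93.4 ± 6.45 CPM in blood, 105 ± 21.2 in liver CD8α high cells and 122 ± 16.4 in lrNK cells. Its lrNK level was above the blood level of the same animal in 5 of 5 pigs, with a fold of 1.30 (interval 1.02 to 1.66), and the difference did not pass (adjusted p = 0.126). The fold over liver CD8α high cells was 1.16 (interval 0.908 to 1.47). *IRF2* shares 6042 bases with *LOC106506214*, which had 8 to 92 counts per library.

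*IRF3*, the factor that turns on type I interferon after nucleic acid sensing, had 29.2 ± 6.59 CPM in blood, 23.4 ± 7.60 in liver CD8α high cells and 22.2 ± 8.68 in lrNK cells. Its locus is chr6:54701733-54706079. The fold between lrNK and blood cells was 0.762 (adjusted p = 0.434), and its interval of 0.491 to 1.18 holds equal levels. Pigs did not move in one direction, with a higher lrNK level in 2 of them and a lower one in 3. Between lrNK and liver CD8α high cells the fold was 0.953 (interval 0.614 to 1.48), and between liver CD8α high and blood cells 0.800 (interval 0.517 to 1.24).

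**Figure D3:**
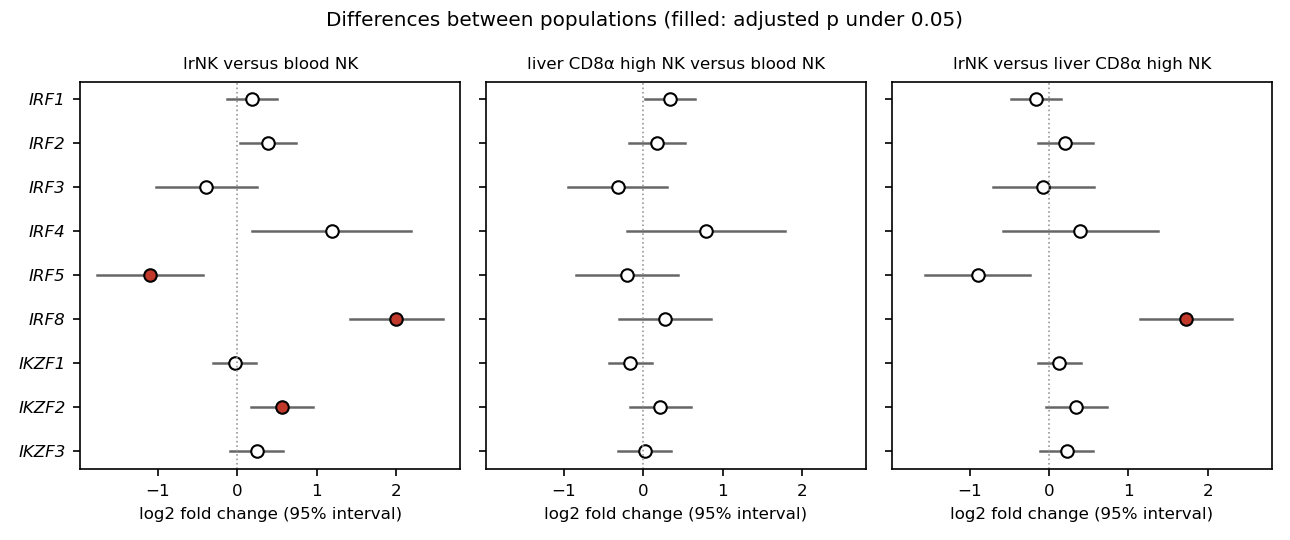
Log2 fold change of each gene (horizontal axis) in the 3 comparisons, with its 95% interval from edgeR; filled points have an adjusted p under 0.05. *IRF8* stands at 2.00 and 1.73 in the comparisons with lrNK cells, *IRF5* at -1.10 and *IKZF2* at 0.56 pass against blood, and no gene passes between the CD8α high cells of liver and blood.

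Among the Ikaros factors, *IKZF2* (Helios), which is best known from regulatory T cells and from early stages of innate lymphocytes, was the gene that differed. It lies at chr15:115512160-115677503, with no other annotated gene across it. In blood it had 650.1, 409.5, 517, 541 and 611 CPM in pigs 1 to 5. Liver CD8α high cells had 669.6, 549, 681, 594 and 676 CPM and lrNK cells 923, 596, 1183, 565 and 764 CPM. The lrNK level was above the blood level of the same pig in 5 of 5 animals, by 1.04 times in pig 4 to 2.29 times in pig 3, although the lrNK libraries of pigs 2 and 4 lay within the blood range. The lrNK library of pig 3 also had the lowest *IL2RB* and *CXCR6* of the lrNK libraries, at 381 and 86.2 CPM (medians 2767 and 700). Its NK marker sum was the lowest as well, and the bearing of this on *IKZF2* was not tested. The means were 546 ± 92.9, 634 ± 59.2 and 806 ± 255 CPM (SD, n = 5). The log2 fold change between lrNK and blood cells was 0.56 (standard error 0.18, adjusted p = 0.0378), a fold of 1.48 with an interval of 1.13 to 1.93. The call was lost without pig 1 (0.59, adjusted p = 0.0788), pig 2 (0.57, adjusted p = 0.0675), pig 3 (0.36, adjusted p = 0.196) or pig 5 (0.64, adjusted p = 0.0675), and when only these 2 populations entered the fit (0.56, adjusted p = 0.0889). It was also lost without the blood library of pig 2, 3 or 4 (0.47, 0.54 and 0.56) or the lrNK library of pig 1 or 3 (0.52 and 0.40). Liver CD8α high cells were between the 2 other populations, with a fold of 1.16 over blood (interval 0.890 to 1.52, adjusted p = 1.00), and lrNK cells had 1.27 times their level (interval 0.974 to 1.66, adjusted p = 0.255).

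*IKZF3* (Aiolos), a factor of mature NK, B and T cells, had the highest counts of the 9 genes, and its locus is chr12:22466386-22562320. It had 1730.2, 1602, 1667, 1536.5 and 2043 CPM in blood and 1920.3, 1677, 1559.9, 1763.5 and 1774 CPM in liver CD8α high cells. In lrNK cells it had 2541, 1293, 2359, 1759 and 2190.5 CPM, so that the lowest and the highest of the 15 values were both lrNK libraries. The fold between lrNK and blood cells was 1.18 (interval 0.938 to 1.49, adjusted p = 0.348), and between the CD8α high cells of liver and blood it was 1.01 (interval 0.804 to 1.28). Pigs 2 and 4, which had the smallest lrNK levels of *IKZF2*, also had the smallest lrNK levels of *IKZF3*, and these were the 2 libraries with the largest B cell sums.

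*IKZF1* (Ikaros), which most lymphocytes carry, was the steadiest of the 3. Its level was 413 ± 42.8 CPM in blood, 369 ± 24.9 in liver CD8α high cells and 404 ± 48.1 in lrNK cells, from the locus chr9:136372202-136464942. The fold between lrNK and blood cells was 0.978, with an interval of 0.810 to 1.18 (adjusted p = 0.911). Between liver CD8α high and blood cells the fold was 0.893 (interval 0.739 to 1.08, adjusted p = 1.00), and between lrNK and liver CD8α high cells 1.09 (interval 0.907 to 1.32, adjusted p = 0.608).

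The summed level of the IRF group, and the share of *IRF8* in it, were higher in each lrNK library than in any CD8α high library, without a test. Blood and liver CD8α high libraries overlapped in both. Counts were set side by side without dividing by length, since the kit reads transcript ends. Whether the counting covered each gene's end equally, and how reads in the spans that *IRF1*, *IRF2* and *IRF5* share with other genes were assigned, was not tested. The summed level of the 6 IRF genes was 464 ± 54.9 CPM (SD, n = 5) in blood, 527 ± 55.1 in liver CD8α high cells and 648 ± 27.4 in lrNK cells, where the range of 616 to 679 CPM lay above all other libraries, of which the highest was 603 CPM. Of the 184 CPM by which the mean sum in lrNK cells exceeded that in blood, *IRF8* gave 174 CPM, *IRF2* 28.4, *IRF1* 25.8 and *IRF4* 7.09, while *IRF5* gave -44.3 and *IRF3* -7.003 CPM. *IRF8* made up 12.2% ± 3.97 (SD, n = 5) of the IRF counts in blood, 13.1% ± 3.79 in liver CD8α high cells and 35.6% ± 7.16 in lrNK cells. The smallest share in an lrNK library was 26.6% and the largest in any other library 19.6%. *IRF5* made up 17.6% ± 3.84, 13.7% ± 2.71 and 6.01% ± 3.59. *IRF1* was the largest contributor to the IRF counts in both CD8α high populations on average, with 42.4% ± 6.45 in blood and 46.9% ± 7.17 in liver, and had 34.1% ± 3.99 in lrNK cells, about the same as *IRF8*. These shares are descriptions, since each depends on the other genes of the group.

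The Ikaros group kept its order in all 3 populations. *IKZF3* gave 64.2% ± 3.10 (SD, n = 5) of the 3 genes' counts in blood, 63.4% ± 1.76 in liver CD8α high cells and 62.4% ± 4.30 in lrNK cells. *IKZF2* gave 20.3% ± 2.10, 23.1% ± 2.14 and 24.7% ± 3.25, and *IKZF1* 15.5% ± 1.61, 13.5% ± 0.933 and 12.9% ± 2.51. The summed level was 2675 ± 274, 2742 ± 161 and 3239 ± 750.2 CPM.

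**Figure D4:**
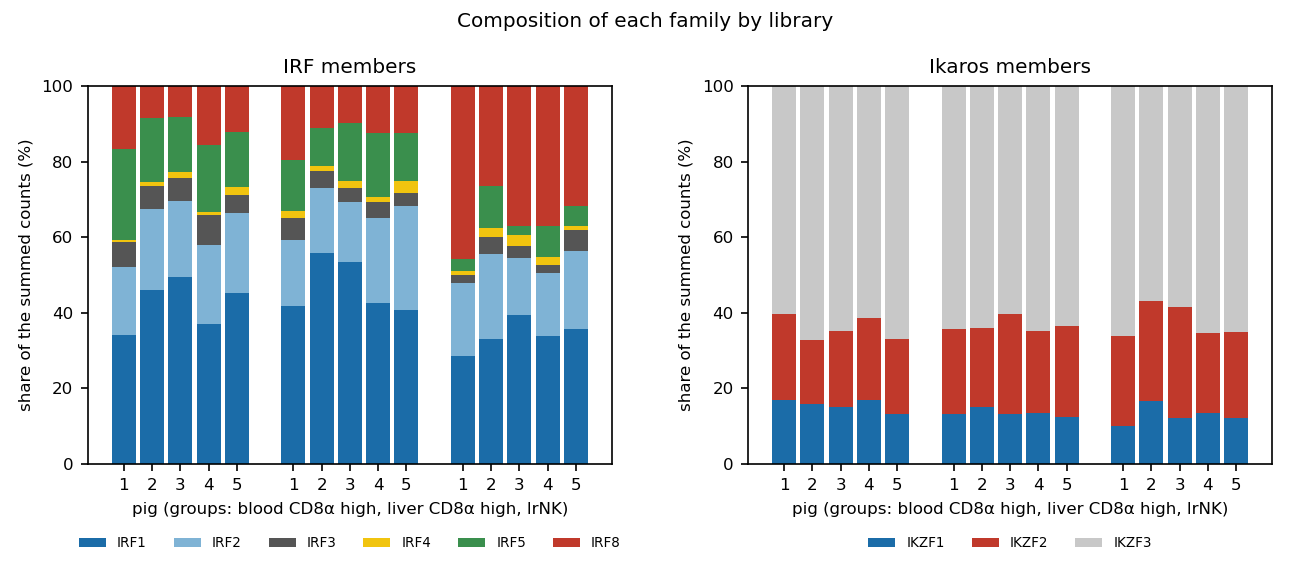
Share of each gene in the summed counts of its family (vertical axis, percent) in each library, for the 6 IRF genes and the 3 Ikaros genes. Each stacked bar is a library, numbered by pig, in 3 blocks for blood, liver CD8α high and lrNK cells. The *IRF8* share is 26.6% or more in each lrNK library and at most 19.6% in the others, while the 3 Ikaros genes keep similar shares.

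The spread between animals of one population was described by the coefficient of variation, which depends on the level of a gene. Over the 5 pigs it was below the median of all genes tested for 6 of the 9 in blood (median 29.9%), 6 in liver CD8α high cells (median 26.7%) and 7 in lrNK cells (median 41.1%). Genes were not matched for level, and the 9 ran from *IRF4*, with 9 to 62 counts per library, to *IKZF3*, with 2693 to 10232. No test was run, and nothing is read from these counts. *IKZF1* had 10.3%, 6.74% and 11.9%. *IRF5* was the most variable of the 9 in lrNK cells, with 57.6%, and *IRF4* the most variable in blood, with 50.6%.

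Some of the 9 genes moved together over the libraries. *IKZF2* and *IKZF3* had a Pearson correlation of log2 CPM of 0.726 over the 15 libraries and 0.694 once population means were removed. *IRF5* was opposed to both, with -0.725 and -0.554 for *IKZF2* and -0.706 and -0.676 for *IKZF3*. Within populations, the correlation with the B cell sum was -0.570 for *IKZF2*, -0.510 for *IKZF3* and 0.438 for *IRF5*. The part of B cell RNA in these correlations was not tested. *IRF5* and *IRF8* had -0.627 over the libraries but 0.0802 within populations, so that their opposition lay between the populations. The 15 libraries come from 5 animals and differ in depth and in B cell RNA.

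By the correlation of log2 CPM over the 15 libraries, the genes most like *IRF8* were *PPCDC*, an enzyme of coenzyme A synthesis (0.964), *PDGFD*, a growth factor that binds an activating NK receptor in humans (0.960), and *AKAP5*, an anchor for protein kinase A (0.957). *PDGFD* had 13.2 ± 10.4, 16.5 ± 8.35 and 157 ± 26.7 CPM in blood, liver CD8α high and lrNK cells. The genes most like *IRF5* were *SRSF12* (0.932), *VWA7* (0.916) and *SUN2*, a protein of the inner nuclear membrane (0.903), of which *SUN2* had 732 ± 73.1, 721 ± 61.5 and 387 ± 126 CPM. Those most like *IKZF2* were *GCN1*, a sensor of stalled ribosomes (0.918), *FUBP1* (0.897) and the histone acetyltransferase *KAT6B* (0.888), with *GCN1* at 51.9 ± 11.8, 56.6 ± 13.0 and 117 ± 65.4 CPM. With 10939 genes to choose from, the leading genes have high values by selection, and nothing on shared control follows from them.

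The remaining relatives of the 2 families were looked at as a list of 8, of which 7 were tested. Between lrNK and blood cells 1 rose and 2 fell, beside 8.62% and 9.6% of all genes tested, and nothing is read from so small a list. *IKZF5* (Pegasus), a further Ikaros factor, rose from 140 ± 18.7 to 234 ± 34.2 CPM (log2 fold change 0.74, standard error 0.16, adjusted p = 0.00161). *IKZF4* (Eos) fell by 1.53 on the log2 scale, from 14.6 ± 3.80 to 5.09 ± 2.15 CPM (adjusted p = 0.0227), on 6 to 17 counts in the lrNK libraries, and it lost the call without pig 2, 4 or 5 (-1.52, -1.31 and -1.47), without the blood library of pig 2 (-1.37), without the lrNK library of pig 4 or 5 (-1.29 and -1.48) and without a filter on low counts (-1.55). *IRF2BPL*, a relative of the corepressors that bind *IRF2*, fell by 1.93, from 236 ± 40.3 to 61.95 ± 28.1 CPM (standard error 0.26, adjusted p = 1.38e-05). For each of the 3, the lrNK and blood ranges did not overlap, and each moved the same way in 5 of 5 pigs. *IRF7*, the amplifier of the type I interferon response, did not pass the filter, with at most 21 counts in any library.

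Of the 10 tested genes of interferon receptors and their signalling, 6 rose and 0 fell between blood and lrNK cells, with a median log2 fold change of 1.04 beside 0.01 over all genes, of which 8.62% were higher and 9.6% lower. With the pig as a block 1 fell, *SOCS1*, named after its value was seen (-0.81, adjusted p = 0.0262). Against liver CD8α high cells 5 rose and 1 fell, beside 6.96% and 7.68% of all genes. The counts became 3 and 0 without pig 5 and 5 and 0 without the liver CD8α high library of pig 2. *IFNAR2*, a chain of the type I interferon receptor, rose from 64.9 ± 9.81 to 203 ± 25.6 CPM (log2 fold change 1.64, standard error 0.24, adjusted p = 3.11e-05). The receptor kinase gene *JAK1* rose by 1.33 on the log2 scale (adjusted p = 2.65e-04), and *STAT2*, a subunit of the factor that type I interferon activates, rose by 1.16 (adjusted p = 6.24e-04). Of the 13 tested genes on the route from sensors to *IRF3*, *IRF5* and *IRF7*, 3 rose and 0 fell, with a median of 0.61, beside 8.62% higher and 9.6% lower over all genes. These were the RNA sensors *IFIH1* (log2 fold change 1.58, adjusted p = 1.78e-04) and *DDX58* (1.55, adjusted p = 0.00326) and the adaptor *TICAM1* (1.53, adjusted p = 0.0234), whose call was lost without pig 1 or 4 (1.36 and 1.27), without the blood library of pig 3 or 4 (1.49 and 1.35), without the lrNK library of pig 1 (1.32) and without a filter on low counts (1.52). *MYD88*, the adaptor of most Toll-like receptors, was listed at 0 in all 15 libraries, and whether the counting covered its transcript end was not tested, so that the 0 is not read as absence of the transcript.

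Of the 31 tested interferon-induced genes, 17 rose and 0 fell between blood and lrNK cells, with a median log2 fold change of 0.74, beside the 8.62% of all genes tested that were higher and 9.6% that were lower. The other 14 did not pass, among them, named after their values were seen, *GBP1* at -0.35 (lower in 5 of 5 pigs, adjusted p = 0.142) and *GBP2* and *TAP2* at -0.01 and -0.003. Without the lrNK library of pig 3, 1 gene of the list fell. Against liver CD8α high cells, where 6.96% of all genes were higher and 7.68% lower, 16 rose and 0 fell, or 1 fell without pig 3, without its lrNK library or without the blood library of pig 4, with a median of 0.94 (15 and 1 with the pig as a block). Between the CD8α high cells of liver and blood, 0 of 31 passed in edgeR or DESeq2, and 2 had an unadjusted p under 0.05 in edgeR. *MX1*, an antiviral GTPase, had 13.3 ± 8.82 CPM in blood and 198 ± 194 in lrNK cells, where pigs ranged from 49.7 to 495 CPM (log2 fold change 3.88, standard error 0.64, adjusted p = 1.44e-04). *USP18*, which removes ISG15 from proteins, had 2.56 ± 3.11 and 34.9 ± 19.4 CPM (log2 fold change 3.71, standard error 0.82, adjusted p = 0.00260). *ISG20*, an exonuclease, had 0 counts in all 5 blood libraries and 6 to 208 counts in the lrNK libraries, at least 40.4-fold higher with a floor of 3 counts per blood library. B cell RNA moved with these counts as well, and its part in them was not tested.

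Of the 6 tested partners that help *IRF4* and *IRF8* to bind DNA, 2 rose and 1 fell between blood and lrNK cells, with a median of 0.45, beside 8.62% higher and 9.6% lower over all genes. Nothing is read from so small a list. *SPIB*, an ETS factor of B cells and plasmacytoid dendritic cells, had 3.54 ± 4.50 CPM in blood and 30.7 ± 14.6 in lrNK cells (log2 fold change 3.07, standard error 0.85, adjusted p = 0.0134), and in liver CD8α high cells it did not exceed 3 counts. The call of *SPIB* was lost in DESeq2 with all libraries (3.13, adjusted p = 0.0533) and without pig 4 (2.84, adjusted p = 0.0611). *TCF3* rose by 0.50 (adjusted p = 0.0329), a call lost without pig 1, 2, 3 or 4, without the blood library of pig 2 or 3 or the lrNK library of pig 4, without a filter on low counts and in the fit of 2 populations, at 0.44 to 0.56. *JUNB*, an AP-1 subunit, fell by 1.04 on the log2 scale (adjusted p = 0.00161). *SPI1* (PU.1), the ETS partner of *IRF8* in myeloid and B cells, did not pass the filter and had at most 13 counts in any library.

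Of 20 tested genes of the chromatin complexes that Ikaros factors recruit, 2 rose and 3 fell between blood and lrNK cells, with a median of -0.04. Over all genes tested 8.62% were higher and 9.6% lower, and the counts of this list are near those shares. The 2 that rose, named after their values were seen, were *MBD2* (log2 fold change 0.67, adjusted p = 0.00920) and *GATAD2B* (0.45, adjusted p = 0.0334), and only 1 gene of the list rose without pig 1, 2, 3 or 5, without the blood library of pig 1, 2, 3 or 4, without the lrNK library of pig 1, 3 or 5, without a filter on low counts, and in the fit of 2 populations. Those that fell were the histone-binding protein *RBBP7* (log2 fold change -1.09, adjusted p = 0.007045), the deacetylase *HDAC1* (-0.90, adjusted p = 8.27e-04) and the remodeller *CHD3* (-0.88, adjusted p = 7.54e-04), which are subunits of the NuRD complex, as are those that rose. Against liver CD8α high cells 0 rose and 3 fell, beside 6.96% and 7.68% of all genes, and 1 fell without pig 2 or pig 5. Between the CD8α high cells of liver and blood 0 of 20 passed in edgeR or DESeq2, and 2 had an unadjusted p under 0.05 in edgeR. The 5 genes of the cereblon ubiquitin ligase, through which drugs of the thalidomide class degrade *IKZF1* and *IKZF3* proteins, were all tested, and 0 passed in any comparison by edgeR or DESeq2. The only one with an unadjusted p under 0.05 in edgeR was *DDB1*, which with the pig as a block passed between lrNK and liver CD8α high cells (0.58, adjusted p = 0.0439).

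**Figure D5:**
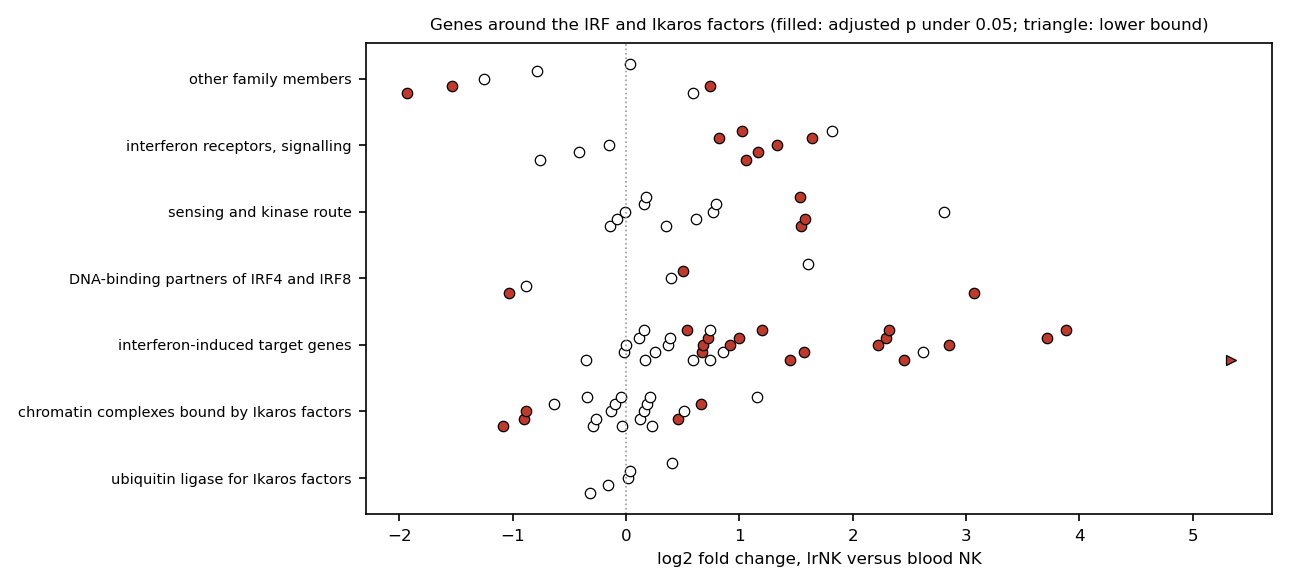
Log2 fold change between lrNK and blood cells (horizontal axis) of each tested gene in the 7 lists of related genes, with filled points for an adjusted p under 0.05, a triangle for the lower bound of *ISG20* and points shifted up or down to keep them apart. The medians of the lists are 1.04 for interferon receptors and signalling, 0.74 for interferon-induced genes and -0.04 for chromatin complexes, beside 0.01 over all genes.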

How the data were processed

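RNA of 3 NK populations of 5 pigs was measured in 15 libraries made with a 3′ mRNA kit (FWD). After trimming, the authors mapped the reads to Sscrofa11.1 (the submitters' processing notes name HISAT2) and deposited raw whole-number counts for 29886 genes. How reads were counted, on which strand, and how multiple alignments were treated are not given in the sources used here. All columns matched a library by its label, and 0 were left over.

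Testing used edgeR 4.0.16 in R 4.3.3 on the counts: TMM normalization, the default filter by population (minimum count 10, leaving 10939 genes), 1 quasi-likelihood fit of all libraries and Benjamini-Hochberg adjustment over all genes tested, with calls at an adjusted p under 0.05. The standard error is the log2 fold change divided by the square root of F, and intervals are 95%. Correlations used log2 CPM with a prior count of 2. The p-values measure the spread between the libraries of 5 animals.

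The main test has no pig term, so the printed p-values are unpaired unless a block is named. The libraries do come in sets of 3 per animal, by the labels and the study, and a fit with the pig as a block was an alternative. Deviations from the population means had a mean correlation of 0.106 within pigs (15 pairs) and -0.0265 between pigs (60 pairs). No libraries of one population agreed within sampling noise (chi-square per degree of freedom 9.41 to 46.7 over 30 pairs). Alternatives were DESeq2 1.42.0 and its size factors, other filters, robust dispersion, the pig as a block, a fit of 2 populations, a threshold of 0.01, and leaving out each pig and each library.

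The 9 genes and all lists of related and marker genes were chosen with earlier results of these data known. Named were the 9 genes, at most 3 called genes of each list by size of change between lrNK and blood cells, the 3 genes most correlated with each of the 9 that passed a test, and *EOMES* and *TBX21*. Marker genes and exceptions were named after their values were seen. Coordinates come from a RefSeq gene table of Sscrofa11.1. No sequences were used here.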

Additional observations from a re-analysis of the deposited data

Results flagged for a closer look

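Of 27 groups of 5 libraries (the 9 genes in 3 populations), 2 held a library far from the other 4 by Dixon's ratio, which chance does in about 1 of 20 groups. *IRF5* in blood was 131 CPM in pig 1, with the other pigs at 65.4 to 80.2 CPM. *IRF8* in liver CD8α high cells was 118 CPM in pig 1, with the others at 47.1 to 66.4 CPM. That library also held the highest *EOMES*, *CXCR6* and *NCR1* of its population, at 218, 153 and 167 CPM (medians 38.6, 23.2 and 34.9). Its B cell sum, 88.7 CPM, was the highest of that population as well. Whether lrNK cells were part of this library was not tested. Both highest libraries come from the same animal, and without the blood library of pig 1 the fall of *IRF5* between blood and lrNK cells did not pass (-0.86, adjusted p = 0.0748). *IRF8* passed with and without pig 1 in both comparisons with lrNK cells.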

How the results depend on the processing

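*IRF8* passed in both comparisons with lrNK cells under all 28 alternatives, at 1.85 to 2.24 against blood and 1.60 to 1.99 against liver CD8α high cells on the log2 scale. *IRF5* passed against blood under 24 of 28, at -1.45 to -0.71, and *IKZF2* under 18 of 28, at 0.36 to 0.68. Between lrNK and liver CD8α high cells, *IRF5* passed under 7 of 28, so that 2 of the 9 factors were called by DESeq2, without a filter, and with the pig as a replicate block in edgeR and in DESeq2. Leaving out a pig or a library gave 1 to 3 factors and 1472 to 2301 genes against blood, 1 to 2 factors and 1051 to 1764 genes between lrNK and liver CD8α high cells, and 0 to 12 genes between the CD8α high cells. The last count, 7 genes, was 25 by DESeq2, 18 without a filter, 4 with robust dispersion, 16 in a fit of 2 populations and 47 with the replicate block in DESeq2. At an adjusted p under 0.01 the calls were 1199, 0 and 947 genes, and 1 factor against blood. In edgeR the replicate block left 3, 0 and 2 of the 9 factors called. Directions turned for differences near 0 that never passed, when a pig or library was left out: *IKZF1* between lrNK and blood cells (-0.132 to 0.0562), *IKZF3* (-0.0227 to 0.0963) and *IRF5* (-0.320 to 0.0330) between the CD8α high cells, and *IRF3* between lrNK and liver CD8α high cells (-0.411 to 0.236). The cause was not tested. Scaling moved the median of all genes by at most 0.0143. *IRF4* rests on 9 to 62 counts per library, and counting error and the spread between pigs were not told apart.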
